A study of Mus musculus with 17 samples.

Results

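The cytosolic ribosome is built from ribosomal RNA and a fixed set of ribosomal proteins, named Rpl in the large subunit and Rps in the small subunit. The genes of this set were taken as every row of the count table whose Ensembl ID belonged to a protein-coding mouse gene named Rpl or Rps followed by a digit, together with Rplp0, Rplp1, Rplp2, Rpsa and Fau. Rps6k kinases and Rps19bp1 were left out. This gave 92 of the 39017 rows, on 20 chromosomes, with 14 on chromosome 7 and 4 on the X chromosome. Of the 92 genes, 78 carry the name of a ribosomal protein (46 of the large and 32 of the small subunit), 7 are copies of such a gene under a name of their own and 7 are annotated as protein-coding although their names mark them as retrogenes or pseudogenes. A minimum of 1 count in at least 9 of the 17 libraries was passed by 22242 genes in all and by 89 of the 92.

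RNA was read from the cortex of mice that carry the NSE-Cre and RiboTag alleles on the C57BL/6J background, with 1 library per mouse. In these adult mice a Cre recombinase under the promoter of neuron-specific enolase (Eno2) switches on an HA tag on the ribosomal protein Rpl22, and antibody to the tag pulls down ribosomes with the RNA they carry. Every mouse of all 4 groups carried both the Cre and the tagged Rpl22 allele. The groups were male mice with chronic experimental autoimmune encephalomyelitis (EAE, induced with a myelin oligodendrocyte glycoprotein peptide in complete Freund's adjuvant and pertussis toxin; n = 5), healthy male controls (n = 4), female mice with chronic EAE (n = 4) and healthy female controls (n = 4). The total RNA of the tissue was not analysed here, so a level is a level in the precipitated RNA and does not show in which cell an RNA was.

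All ribosomal protein mRNAs code for parts of 1 machine, and cells keep their output in balance. Many of them start with an unbroken run of C and T bases (a terminal oligopyrimidine, or TOP, start), through which the kinase complex mTORC1 and the protein LARP1 adjust their translation together. In neurons ribosomal protein mRNAs are found in the cell body as well as in dendrites and axons.

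The start of the transcript is shown for 7 of these genes because the pyrimidine run of a TOP start is a known feature of ribosomal protein mRNAs. Each line gives the 30 bases around the RefSeq start (15 before it and 15 from it on), 5′ to 3′ on the strand of the gene, in build GRCm38.p6, and capitals mark a run of at least 8 bases that are all C or T and that begins or ends within 5 bases of the start or spans it. Rpl14, Rpl27a and Rplp2 fell in male EAE, Rpl15 and Fau did not pass the test, Rps15a rose, and Rpl22, the tagged protein, fell and has no such run at this start.
Rpl14, chr9:120571502-120571531, plus strand: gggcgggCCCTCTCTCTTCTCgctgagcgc
Rpl27a, chr7:109519180-109519209, plus strand: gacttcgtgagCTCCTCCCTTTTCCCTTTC
Rplp2, chr7:141447636-141447665, plus strand: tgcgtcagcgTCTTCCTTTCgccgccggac
Rpl15, chr14:18270972-18271001, minus strand: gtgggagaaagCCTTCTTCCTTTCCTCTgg
Fau, chr19:6057932-6057961, plus strand: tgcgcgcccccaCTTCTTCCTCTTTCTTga
Rps15a, chr7:118116133-118116162, minus strand: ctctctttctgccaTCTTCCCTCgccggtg
Rpl22, chr4:152325711-152325740, plus strand: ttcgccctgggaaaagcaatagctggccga
The run was searched on the strand of the gene only. It was found at a start of 25 of the 66 genes of the family that have a start in the RefSeq table (37.9%), against 3068 of 27025 genes of all kinds (11.4%). Among those that fell in male EAE 17 of 46 had it (37.0%), and among those tested and not called lower 8 of 19 had it (42.1%). These are counts of letters at an annotated start and do not show where transcription began in these cells.

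The libraries held 66155142 to 98433383 counts. Male EAE libraries had 70613567 to 76768267 and male control libraries 85800542 to 98433383 counts, without overlap (p = 0.0159 in an exact two-sided permutation test, its smallest value for 5 against 4 mice). Female EAE libraries had 66155142 to 86691316 and female control libraries 83664876 to 92822398 counts. Neuronal markers were present in every library: the summed level of the 8 genes listed was 11488 to 13046 CPM (counts per 1000000 counts, scaled by TMM) in male EAE, 11187 to 12127 CPM in male control, 11672 to 14088 CPM in female EAE and 11512 to 13582 CPM in female control mice. Astrocyte markers summed to 5258 to 6367 CPM in male EAE against 6990 to 9598 CPM in male control mice, and to 4897 to 5763 CPM in female EAE against 4942 to 8840 CPM in female control mice. Oligodendrocyte markers summed to 6474 to 7841 CPM in male EAE and 6744 to 7359 CPM in male control mice. Every marker of these 3 lists had counts. The replicates of a group are separate mice, and no pair of libraries was identical.

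Levels per length differed widely among the ribosomal protein genes. On the scale of CPM per kilobase of exon, averaged over the 17 libraries, Rplp1, an acidic protein of the lateral stalk that recruits elongation factors, had 231, Rps15 of the small subunit had 222, Rpl8 had 166 and Rpl4 had 120 CPM per kb. The median level of the 89 genes was 5.50 CPM, in a range of 0.0479 to 241 CPM. Rpl10l, a copy of Rpl10 known from the testis, and Rpl36-ps4 were listed at 0 in every library, where 3 counts would be 0.0305 to 0.0440 CPM depending on the library. Rpl9-ps1 had between 0 and 0.0287 CPM. These 3 genes were not tested.

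In male EAE mice the ribosomal protein genes were lower as a family. Of the 89 genes tested 67 fell, 1 rose and 21 did not pass, where 20.4% of all genes tested fell and 19.2% rose. The median log2 fold change of the 89 was -0.58, against 0.02 over all genes. Those that fell included the most abundant members (Rplp1, Rpl4, Rpl8, Rps3) and the tagged protein Rpl22, and the 1 that rose was Rps15a of the small subunit. A gene was said to rise or fall when edgeR's quasi-likelihood test, with Benjamini-Hochberg adjustment over all 22242 genes, gave a false discovery rate (FDR) under 0.1 and the log2 fold change was past 0.25 in either direction. In bulk RNA of this kind fewer tagged cells and less of an RNA per cell cannot be told apart.

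Together the 92 genes took 0.144% to 0.192% of all counts in male EAE (median 0.158%), against 0.204% to 0.306% in male control mice (median 0.231%). Female EAE mice had 0.150% to 0.213% (median 0.175%) and female control mice 0.194% to 0.264% (median 0.209%). Shares did not overlap between EAE and control in males and did in females. The highest share of all, 0.306%, was that of male control 4, and the highest of the female libraries, 0.264%, was that of female control 2.

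**Figure D1:**
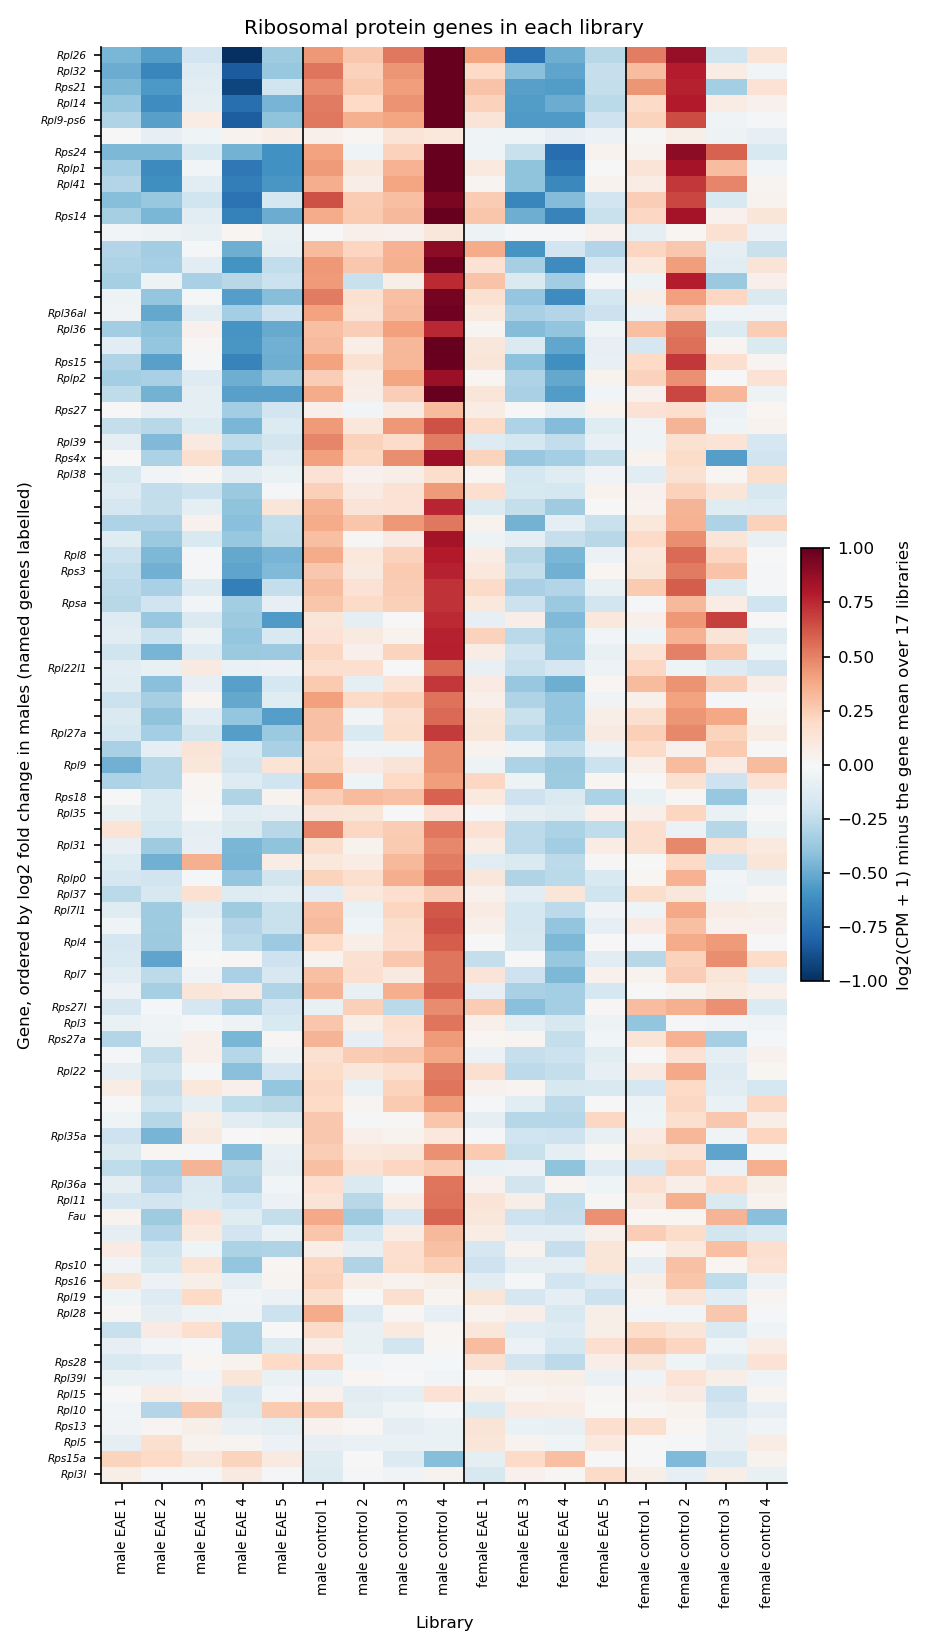
Level of the 89 tested ribosomal protein genes (rows, ordered by their log2 fold change in males, with symbols for genes named in the text) in each of the 17 libraries (columns, by group), as log2(CPM + 1) minus the mean of the gene over all libraries, on a colour scale that ends at 1 in each direction. Most genes are below their mean in the 5 male EAE libraries and above it in the 4 male control libraries, most of all in male control 4, and Rps15a runs the other way.

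Rpl22, of the large subunit and the protein that carries the tag, had 60.6, 56.3, 64.0, 48.1 and 56.6 CPM in male EAE, against 73.6, 70.0, 72.3 and 93.0 CPM in male control mice. All male EAE libraries lay under all male control libraries. The log2 fold change was -0.43 (SE 0.12, FDR 0.0112 in edgeR's test). In female EAE mice Rpl22 had 72.3, 53.9, 54.8 and 61.1 CPM, against 68.8, 84.6, 59.1 and 65.5 CPM in female control mice. These overlapped, and the interval of the log2 fold change ran from -0.45 to 0.05. The count does not separate the tagged from the untagged Rpl22 mRNA.

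The falls were seen in both subunits. In the large subunit 36 of 46 genes fell and none rose, with a median log2 fold change of -0.54. In the small subunit 25 of 32 fell and 1 rose, with a median of -0.70. EAE and control libraries did not overlap, with EAE lower, for 50 of the 89 genes in males, against 14.3% of all genes. Below 0 were 85 of the 89 log2 fold changes, against 48.2% over all genes.

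The largest falls in the large subunit were those of Rpl26, Rpl32, Rpl14, Rplp1 and Rpl41. Rpl26, which lies near the exit of the tunnel for the new protein, had 12.9, 12, 15.7, 8.2 and 13.9 CPM in male EAE, against 24.7, 22.0, 26.5 and 41.9 CPM in male control mice (log2 fold change -1.20, SE 0.26). Rpl32 had 22.5, 20.1, 29.3, 17.6 and 24.6 CPM in male EAE, against 47.0, 37.8, 43.9 and 71.3 CPM in male control mice (-1.13, SE 0.20). In both genes the groups stood apart, and male control 4 was the highest library. Rpl14, whose pyrimidine run is printed above, had 54.9, 46.2, 66.9, 42.2 and 51.7 CPM in male EAE, against 103, 82.4, 98.1 and 159 CPM in male control mice (-1.08, SE 0.20). The stalk protein Rplp1 had 84.5, 68.6, 105, 64.8 and 70.2 CPM in male EAE, against 145, 116, 136 and 252 CPM in male control mice (-1.04, SE 0.23). The highest male EAE library, male EAE 3, stayed below the lowest control in each of these genes. Rpl41, the shortest protein of the ribosome, had 59.0, 47.1, 67.3, 44.6 and 48.4 CPM in male EAE, against 93.7, 76.1, 95.7 and 164 CPM in male control mice (-1.01, SE 0.21). The FDR of edgeR's test was 0.00541 to 0.00542 for these 5 genes.

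Rps21, Rps24 and Rps14 were among the small subunit genes that fell the most. Rps21 had 9.71, 8.81, 12.5, 6.70 and 11.7 CPM in male EAE, against 19.3, 16.5, 18.4 and 31.3 CPM in male control mice (log2 fold change -1.11, SE 0.25). Rps24, one of the proteins whose loss of 1 copy causes Diamond-Blackfan anemia in humans, had 4.63, 4.62, 5.91, 4.55 and 4.04 CPM in male EAE, against 9.17, 6.47, 8.01 and 16.2 CPM in male control mice (-1.06, SE 0.26). No male EAE library reached the lowest male control in either gene. Rps14, which contacts the messenger RNA path, had 11.6, 10.5, 13.7, 8.93 and 10.3 CPM in male EAE, against 19.5, 18, 18.8 and 30.7 CPM in male control mice (-0.98, SE 0.21). The groups did not overlap in Rps14 either, and the FDR of edgeR's test was 0.00542 to 0.00706 over the 3 genes.

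The genes with the most counts fell as well. The median log2 fold change was -0.72 for the 5 genes at 100 CPM or more, Rplp1 included. Rpl4 had 210, 184, 229, 195 and 183 CPM in male EAE, against 271, 248, 265 and 360 CPM in male control mice (log2 fold change -0.51, SE 0.13, FDR 0.00737). Rpl8, a core protein of the peptidyl transferase region, had 189, 160, 216, 153 and 158 CPM in male EAE, against 283, 235, 257 and 379 CPM in male control mice (-0.72, SE 0.15, FDR 0.00541). Rps3, at the entry of the messenger RNA channel, had 121, 103, 142, 99.3 and 106 CPM in male EAE, against 174, 153, 172 and 245 CPM in male control mice (-0.70, SE 0.15, FDR 0.00541). None of the 3 overlapped between the groups. By level, 5 of 5 genes at 100 CPM or more fell, 22 of 26 from 10 to under 100 CPM, 36 of 46 from 1 to under 10 CPM and 4 of 12 under 1 CPM. Calls also depended on level among all genes. Of all genes tested 20.4% fell, and 28.1% fell when only genes of mean log2 CPM above 1 were tested.

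**Figure D2:**
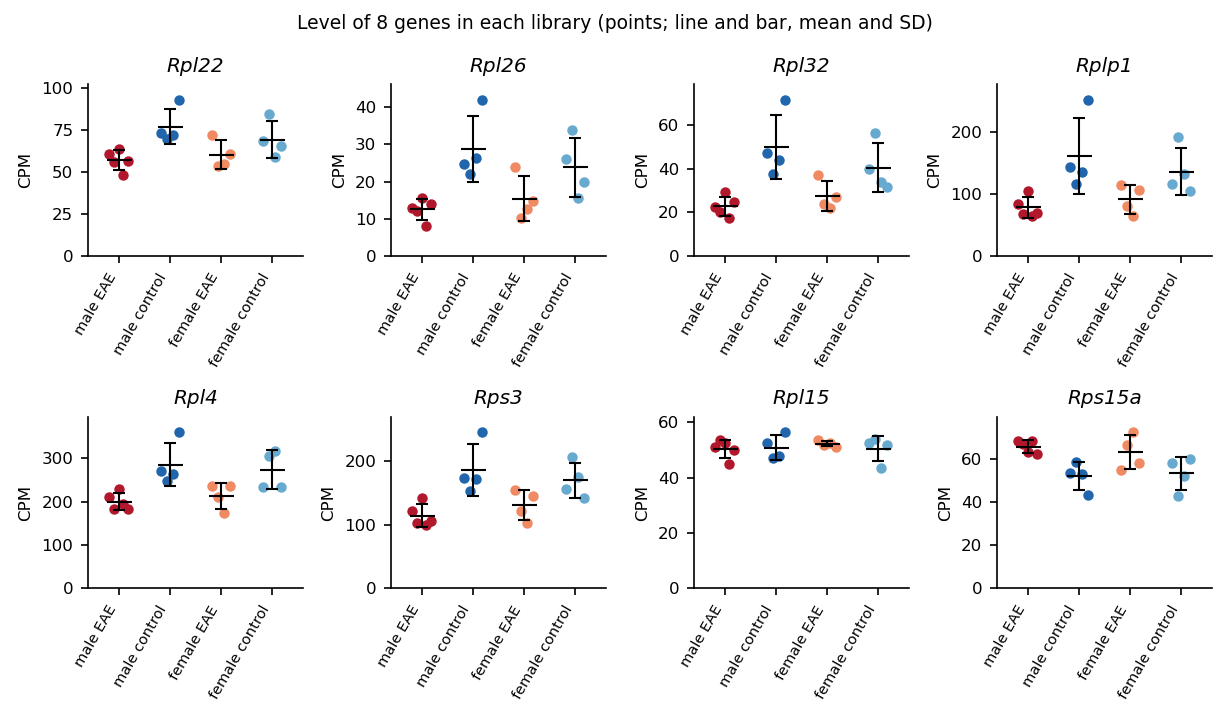
Level in CPM (vertical axis, starting at 0) of 8 ribosomal protein genes in male EAE (n = 5), male control (n = 4), female EAE (n = 4) and female control (n = 4) mice, where each point is a library, and the line and bar give the mean and SD. Rpl26 lies at 8.2 to 15.7 CPM in male EAE against 22.0 to 41.9 CPM in male control mice, while Rpl15 lies at 45.1 to 53.6 CPM against 47.0 to 56.4 CPM.

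The proteins with a place or a structure of their own fell, apart from Fau, which did not pass the test. The interval of Fau, given below, holds the median of the family, -0.58. The stalk base Rplp0 had 22.5, 22.1, 25.2, 19.2 and 22.3 CPM in male EAE, against 29.9, 28.6, 33.0 and 37.7 CPM in male control mice (log2 fold change -0.54, SE 0.12, FDR 0.00542). Rplp2, the partner of Rplp1 in the stalk, had 4.26, 4.34, 5.12, 3.76 and 4.15 CPM in male EAE, against 6.94, 6.04, 7.80 and 11.1 CPM in male control mice (-0.88, SE 0.17, FDR 0.00541). Rpsa, also known as the laminin receptor precursor, had 2.70, 2.90, 3.38, 2.52 and 3.22 CPM in male EAE, against 4.42, 4.10, 4.27 and 6.37 CPM in male control mice (-0.70, SE 0.17, FDR 0.00639). The groups did not overlap in any of these 3. Rps27a, made as a fusion with ubiquitin, had 2.49, 3.12, 3.42, 2.10 and 3.30 CPM in male EAE, against 4.39, 3.02, 3.7 and 4.73 CPM in male control mice, with overlap (-0.45, SE 0.18, FDR 0.0636). Its call was lost without male EAE 1, without male EAE 4, without male control 1 and without male control 4. Fau, made as a fusion of Rps30 with a ubiquitin-like protein, had 2.27, 1.5, 2.53, 1.94 and 1.71 CPM in male EAE, against 3.15, 1.5, 1.84 and 3.77 CPM in male control mice, with a log2 fold change between -0.91 and 0.18 (95% interval).

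Of the 4 genes on the X chromosome, 3 fell and Rpl10 did not pass. Rps4x had 2.84, 2.09, 3.29, 1.92 and 2.52 CPM in male EAE, against 4.11, 3.45, 4.30 and 5.97 CPM in male control mice (log2 fold change -0.81, SE 0.23, FDR 0.0117). Rpl39 had 1.44, 0.908, 1.75, 1.18 and 1.28 CPM in male EAE, against 2.63, 2.04, 1.94 and 2.69 CPM in male control mice (-0.83, SE 0.18, FDR 0.00543). These 2 did not overlap. Rpl36a had 7.27, 6.19, 6.96, 6.15 and 7.62 CPM in male EAE, against 8.91, 6.97, 7.72 and 11.8 CPM in male control mice, with overlap (-0.37, SE 0.13, FDR 0.0346). Rpl10, which joins the large subunit late in its assembly, had 1.15, 0.784, 1.65, 0.981 and 1.63 CPM in male EAE, against 1.62, 1.06, 1.13 and 1.17 CPM in male control mice, a log2 fold change between -0.42 and 0.41.

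Of the 7 copies with a name of their own 6 were tested, and 3 fell. Rpl7l1, a copy of Rpl7, had 42.4, 36.0, 42.9, 35.9 and 39.5 CPM in male EAE, against 57.2, 44.2, 53.8 and 71.9 CPM in male control mice (log2 fold change -0.53, SE 0.12, FDR 0.00602), while Rpl7 itself changed by -0.48 (SE 0.13, FDR 0.00946). Rpl36al, the autosomal copy of Rpl36a, had 3.03, 1.90, 2.85, 2.27 and 2.57 CPM in male EAE, against 4.47, 3.53, 4.14 and 7.09 CPM in male control mice (-0.93, SE 0.19, FDR 0.00541). Neither copy overlapped between the groups. Rpl22l1, the copy of Rpl22, had 0.544, 0.592, 0.777, 0.594 and 0.606 CPM in male EAE, against 0.877, 0.875, 0.674 and 1.47 CPM in male control mice, with overlap (-0.64, SE 0.24, FDR 0.0482). Rps27l, a copy of Rps27 that p53 induces, did not pass with all libraries (-0.47, SE 0.25, FDR 0.164), and passed without male control 3 (-0.63). Its parent Rps27 fell (-0.85, SE 0.30, FDR 0.0344). Rpl3l, the copy of Rpl3 used in striated muscle, was at most 0.315 CPM in any library, and Rpl39l, known from the testis, at most 0.150 CPM. Rpl3 itself fell (-0.45, SE 0.15, FDR 0.0236). Of 5 tested genes with a retrogene or pseudogene name 3 fell, led by Rpl9-ps6 with 9.85, 8.2, 13.1, 6.58 and 9.14 CPM in male EAE, against 18.3, 16.1, 16.7 and 27.8 CPM in male control mice (-1.07, SE 0.22, FDR 0.00541), where the groups stood apart.

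A few ribosomal protein genes of substantial level stayed near their control level in male EAE. Rpl15 had 51.2, 53.6, 52.5, 45.1 and 49.9 CPM in male EAE, against 52.5, 47.0, 47.8 and 56.4 CPM in male control mice, and its log2 fold change lay between -0.17 and 0.15. Rpl5, which with Rpl11 and the 5S RNA forms the particle that can bind Mdm2, had 20.7 to 24.8 CPM in male EAE and 20.9 to 21.1 CPM in male control mice (-0.06 to 0.23). Rpl11, its partner, fell with little margin (-0.36, SE 0.17, FDR 0.0991 in edgeR's test). Among the genes closest to no change, Rps13 had 0.121 to 0.246 CPM in male EAE and 0.122 to 0.231 CPM in male control mice (-0.72 to 0.79), and Rps28 had 0.609 to 1.05 CPM in male EAE and 0.753 to 1.06 CPM in male control mice (-0.54 to 0.37). The intervals of these 2 rarer genes are wide. Rpl5 and Rpl11 were chosen after their values were seen.

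Rps15a had 68.6, 67.4, 63.5, 68.4 and 62.3 CPM in male EAE, against 53.9, 58.8, 53.2 and 43.3 CPM in male control mice. Every male EAE library lay above every male control library, as it did for 10.1% of all genes. The log2 fold change was 0.34 (SE 0.11, FDR 0.0248 in edgeR's test). In females it was 0.24, with 55.1, 66.9, 72.6 and 58.6 CPM in female EAE, against 58.3, 43.0, 52.5 and 60.2 CPM in female control mice, which overlapped (unadjusted p = 0.0482 in edgeR's test, FDR 0.25). The exons of the Rps15a gene span 6270 bases, while its transcript in the same annotation has 640. When the counts of the pseudogene rows named after Rps15a were added to its own, the log2 fold change in males became -0.03 and did not pass.

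**Figure D3:**
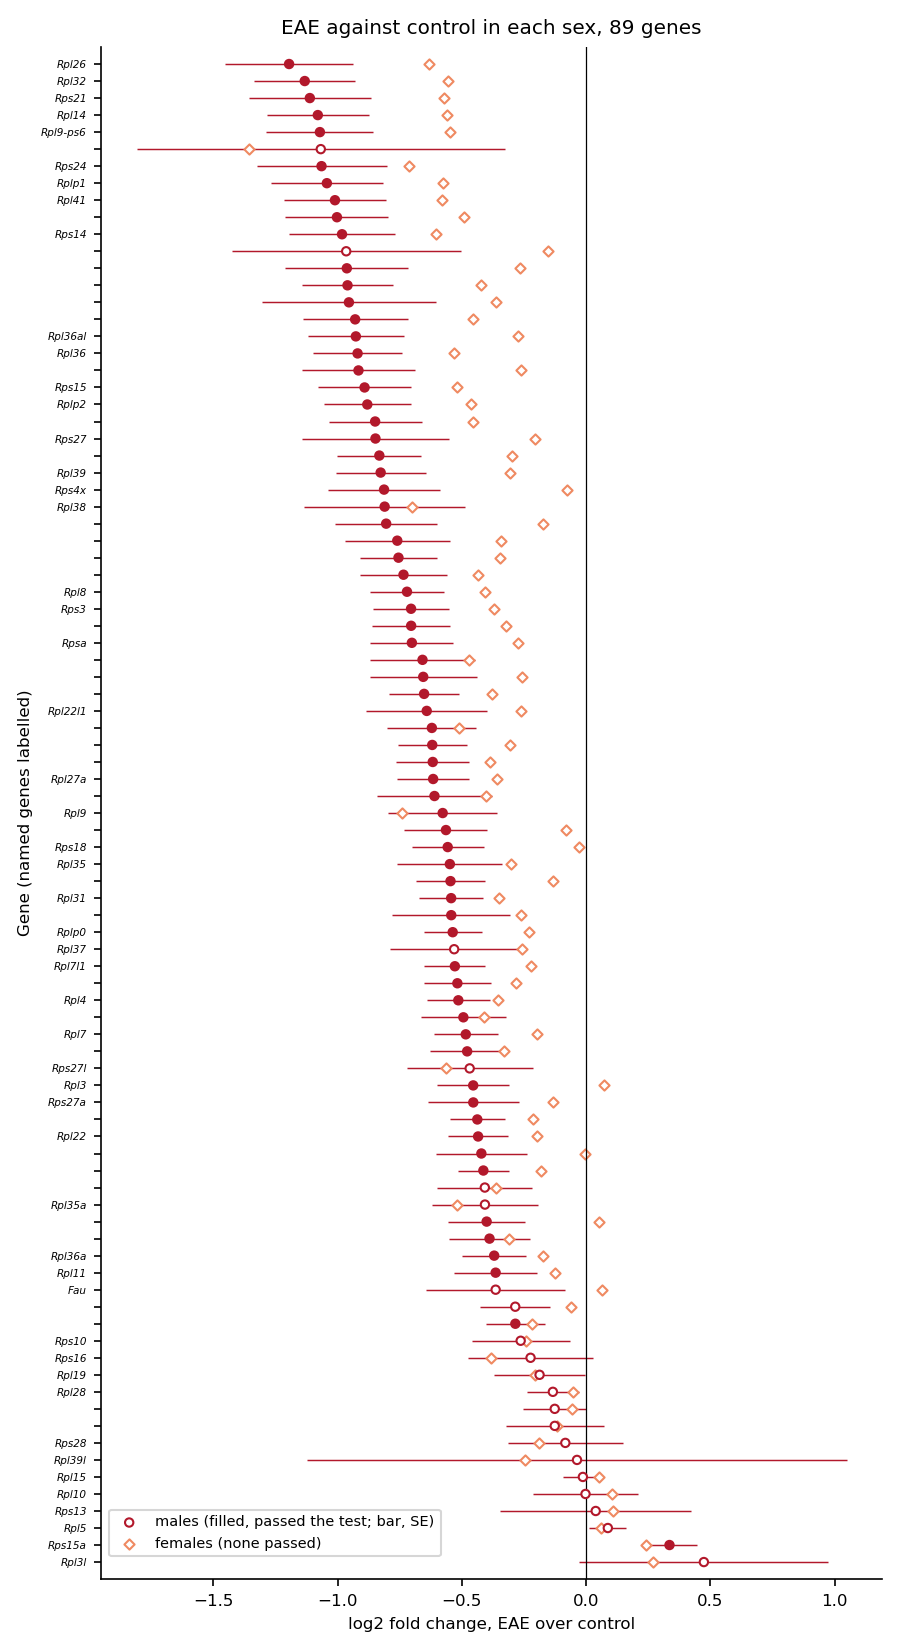
Log2 fold change of EAE over control for each of the 89 tested genes (symbols for genes named in the text), in males (circles, with SE bars; filled where the gene passed the test) and in females (diamonds; none passed). Male values run from -1.20 for Rpl26 to 0.47 for Rpl3l, a gene near the limit of detection that did not pass, and the female value lies to the right of the male value for 78 of the 89 genes.

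A single library weighed on these counts. Without male control 4, whose family share was the highest, 47 genes fell and 1 rose, where 13% of all genes fell, and the median log2 fold change was -0.43. All 47 were among the 67, and 85 of the 89 values were still below 0. Among the genes described above that fell, Rpl22l1 (-0.36), Rpl36a (-0.18), Rpl3 (-0.31), Rps27 (-0.61) and Rps27a (-0.34) no longer passed. Rpl11 and Rpl27a are not covered by this list. Leaving out any other single library gave 60 to 70 falls.

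The ribosomal protein genes are short, and level depended on gene length in these libraries. The slope of log2 level on log2 exon length, over 13277 genes and relative to the mean of all libraries, was 0.0270 to 0.141 in male EAE, against -0.177 to 0.0249 in male control mice, without overlap. In females it was -0.0435 to 0.103 in EAE, against -0.121 to -0.0196 in control mice. The median exon length was 1726 bases over the 89 genes and 3298 bases over all genes tested. With an offset for gene length in each library, 48 of the 89 genes fell and none rose in males, where 16.9% of all genes fell, and the median log2 fold change was -0.37. Rps15a then had 0.24, under the minimum fold change.

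Within the family the shorter genes fell further. With the 89 ordered by exon length, 21 of the 30 shortest fell (median log2 fold change -0.84), 23 of the 29 in the middle (-0.55) and 23 of the 30 longest (-0.52). Across the 89 genes, Spearman's rho between the male log2 fold change and exon length was 0.33 (Pearson's r 0.35), and across 21799 genes of all kinds it was 0.22 (r 0.14). With coding length in place of exon length it was 0.22 (r 0.23) in the family. These are descriptions across genes that share the same libraries. The part of gene length in the result beyond the offset was not tested.

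**Figure D4:**
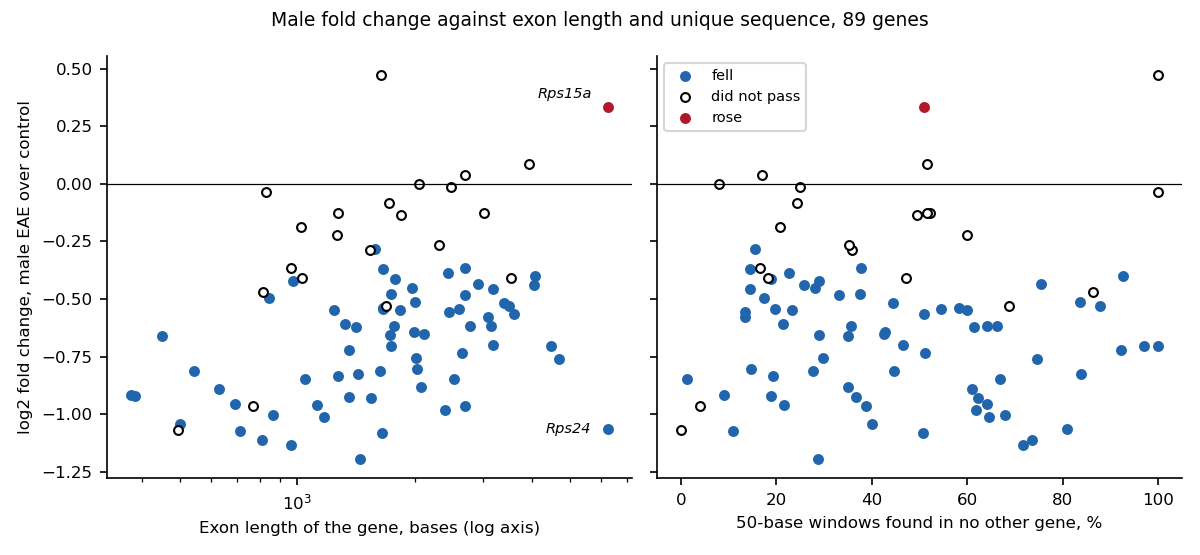
Log2 fold change of male EAE over male control for 89 ribosomal protein genes against exon length in bases (left, log axis) and against the percentage of 50-base windows of the gene found in no other gene (right), with filled points for genes that fell or rose and open points for those that did not pass. The values climb with length (rho 0.33), with Rps15a and Rps24 as the 2 longest genes, and show little relation to uniqueness (rho -0.07).

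Ribosomal protein genes have many near-identical copies in the genome, and how reads that match several places were counted is not given in the sources used here. For 27 of the 89 genes under 25% of 50-base windows were found in no other gene, and 18 of these fell (median log2 fold change -0.54). Of the 50 genes with 25% to under 75% of windows unique 40 fell (-0.63), and of the 12 with 75% or more 9 fell (-0.52). Rpl22 (75.5% of windows unique), Rpl4 (83.5%), Rpl8 (92.1%), Rps3 (97.0%) and Rps24 (80.9%) are in the last class, while Rpl26 (28.7%) and Rplp1 (40.0%) are in the middle one. The table also held 233 rows for pseudogenes named after a ribosomal protein gene, and they are not members. They took 0.101% to 0.135% of all counts in male EAE, against 0.143% to 0.230% in male control mice, and 0.106% to 0.151% in female EAE, against 0.140% to 0.192% in female control mice.

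The pseudogene rows were lower in male EAE mice too, though not always as the gene they are named after. Of the 107 tested 53 fell and none rose in males, with a median log2 fold change of -0.68, and 22 of the 23 at 10 CPM or more fell. Rpl37rt, a retrogene row named after Rpl37 and not among the 233, averaged 196 ± 32.6 CPM in male EAE (SD, n = 5) against 367 ± 104 CPM in male control mice (SD, n = 4), while Rpl37 itself averaged 0.619 CPM over all libraries. It was chosen, like the genes named next, after its values were seen. Of 56 genes with such rows, 23 had over 50% of the summed counts in them and 13 over 90%, among them Rpl38 (99.7%), Rps16 (99.4%), Rpl19 (98.7%), Rpl3 (96.8%) and Rps13 (96.7%). Rps24 (93.3%) and Rpsa (93.0%), described above by their own rows, are also among the 13. The level of such a gene is that of the reads assigned to its own row.

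With the pseudogene rows added to their genes, 73 of the 89 fell and none rose in males, where 20.4% of all genes fell, and the median log2 fold change was -0.64. All 67 earlier falls remained, and 6 genes joined them: Rps10 (-1.15), Rps13 (-1.11), Rps16 (-0.69), Rpl19 (-0.54), Rpl35a (-0.43) and Rpl28 (-0.30). Rpl15 stayed at -0.02. Only rows with a pseudogene name were added, so copies under other names, such as Rpl37rt, were not. Rpl15, for one, shares a 50-base window with 23 other genes, while 4 rows were added to it. Rpl14 had -0.74 with its pseudogene row, which held 70.6% of the summed counts, and -1.08 without it. Rps24 had -0.81 with its pseudogene rows and -1.06 without them, and Rpsa had -0.55 and -0.70.

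**Figure D5:**
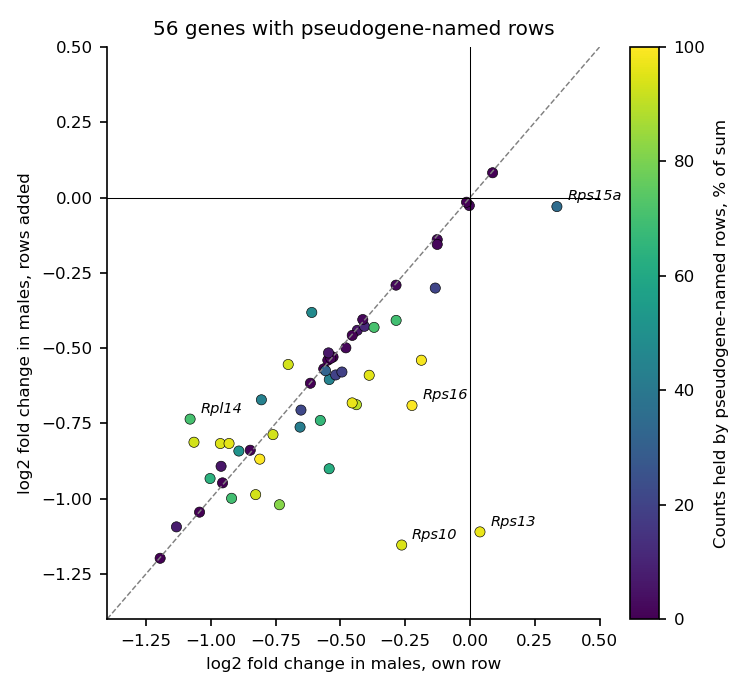
Log2 fold change of male EAE over male control for the 56 ribosomal protein genes that have pseudogene-named rows, from the gene's own row (horizontal axis) and with those rows added (vertical axis), coloured by the percentage of the summed counts the added rows held. Points on the dashed line did not move, while Rps13 went to -1.11 and Rps10 to -1.15 with the rows added, and Rps15a to -0.03.

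Other genes share sequence with the family in another way. Of the 92 genes 39 share at least 1 exon base with another annotated gene and 7 share over 25% of their exon bases. The library kit marked strand, but the strand setting used in counting is not given in the sources used here. Rpl35, which fell (log2 fold change -0.55, SE 0.21, FDR 0.0525 in edgeR's test), shares 66.2% of its exon bases with Wdr38 on the opposite strand. Whether reads of the shared bases were counted apart for the 2 genes is not known.

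In female EAE mice no ribosomal protein gene passed the test, where 0.0225% of all genes fell and 0.036% rose. The values were nonetheless mostly below 0: 80 of the 89 log2 fold changes were negative, against 49.7% over all genes, and their median was -0.30, against 0.00 over all genes. At an unadjusted p under 0.05 in edgeR's test 30 genes were lower and 1, Rps15a, was higher, where 9.38% of all genes were lower and 10.5% higher. The smallest FDR was 0.176. DESeq2 called 2 genes lower, Rpl9 (log2 fold change -0.74, adjusted p = 0.0567) and Rpl36 (-0.53, adjusted p = 0.0946), where it called 2.49% of all genes lower, and limma voom called none.

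The female libraries overlapped for most genes, and 4 of the 89, with Rpl9, Rpl31 and Rpl36a among them, were lower in every female EAE than in every female control mouse, where 3.44% of all genes were. None was higher in every female EAE mouse (3.99% of all genes). Rpl32 had 37.0, 23.8, 22.0 and 27.2 CPM in female EAE, against 40.0, 56.2, 34.0 and 31.6 CPM in female control mice (log2 fold change -0.56, SE 0.22, FDR 0.203). Rplp1 had 115, 80.7, 64.4 and 107 CPM in female EAE, against 117, 192, 133 and 105 CPM in female control mice (-0.58, SE 0.24, FDR 0.216). Female EAE 1 was the highest of its group and female control 2 of its own. Rps24 had 6.45, 5.58, 3.53 and 6.85 CPM in female EAE, against 6.88, 13.3, 10.6 and 5.91 CPM in female control mice (-0.71, SE 0.28, FDR 0.203). In this gene female control 4 lay below 2 of the female EAE libraries. Rpl4 had 236, 211, 173 and 236 CPM in female EAE, against 234, 306, 318 and 235 CPM in female control mice (-0.35, SE 0.14, FDR 0.202). Without female control 2 the number of genes lower at an unadjusted p under 0.05 was 2 and the median log2 fold change -0.19, and without female EAE 4 and without female EAE 3 that number was 9 and 14. Without female EAE 1 that number was 42 and the median -0.39.

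The difference of the EAE effect between the sexes was tested in the same edgeR fit, and no gene of the family passed, as no gene of any kind did (0%). The male minus female difference of the log2 fold changes had a median of -0.31 over the 89 genes and was below 0 for 78 of them, against 50.7% of all genes. At an unadjusted p under 0.05 it was lower for 6 genes (2.35% of all genes), and the smallest FDR was 0.807. DESeq2 and limma voom also called no gene of the family, with 6 and 3 lower at an unadjusted p under 0.05. Of all genes DESeq2 called 0.00899% lower and 0.0045% higher, and limma voom called none. Among the genes with the smallest p in edgeR's test were Rps18 (difference -0.53, SE 0.21), Rpl3 (-0.53, SE 0.21), Rpl36al (-0.65, SE 0.28) and Rps4x (-0.74, SE 0.33), each with an FDR of 0.807. That a gene passed in males and not in females does not show a difference between them. Without male control 4 the median difference was -0.14 and no gene was lower at an unadjusted p under 0.05, and without female control 2 the median was -0.41 and 26 genes were.

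Per library, Rps18 had 3.38, 3.01, 3.43, 2.57 and 3.51 CPM in male EAE, against 4.23, 4.49, 4.41 and 5.63 CPM in male control mice (log2 fold change -0.56, SE 0.15, FDR 0.00891 in edgeR's test). It had 3.71, 2.82, 2.99 and 2.54 CPM in female EAE, against 3.21, 3.45, 2.39 and 3.26 CPM in female control mice (-0.03, SE 0.16, FDR 0.93). The male control mice were thus the only group of the 4 that stood apart in Rps18.

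The sexes were also compared without EAE, in the healthy controls. No gene of the family passed between male control and female control mice, where 0.0495% of all genes were higher in males and 0.018% lower. The log2 fold change of male over female controls was below 0 for 11 of the 89 genes, against 50.1% of all genes, with a median of 0.19, and at an unadjusted p under 0.05 it was higher for 14 genes (2.33% of all genes) and lower for none (2.37%). The smallest p of edgeR's test was that of Rps18 (0.61, SE 0.15, FDR 0.462), which DESeq2 called (0.60, adjusted p = 0.0464, where it called 0.184% of all genes higher) and limma voom did not. Rps4x had 0.79 (SE 0.24, FDR 0.704). The median was 0.04 without male control 4, with 36 genes below 0, and 0.32 without female control 2, and the numbers higher at an unadjusted p under 0.05 were then 5 and 26. The male control mice enter this comparison, the male EAE comparison and the difference between the sexes alike.

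Across the 89 genes the male and female log2 fold changes went together, with Spearman's rho of 0.70 and Pearson's r of 0.71, where all 22242 genes gave 0.60 and 0.45. The 2 comparisons use separate mice but 1 fit. Both were below 0 for 80 genes, both above 0 for 4, and 5 genes were below 0 in males and above 0 in females.

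The machinery that makes ribosomes was lower with the ribosomal proteins in male EAE mice, by less. RNA polymerase I transcribes the ribosomal RNA genes, and of 14 tested genes of its subunits and factors 7 fell and none rose (median log2 fold change -0.31), where 20.4% of all genes fell and 19.2% rose. The same shares of all genes apply to the counts that follow for males. All counts of these lists are with every library, male control 4 included, and without the offset for gene length. Cd3eap, a subunit of this polymerase, averaged 37.1 ± 5.90 CPM in male EAE (SD, n = 5) against 57.3 ± 9.53 CPM in male control mice (SD, n = 4; -0.62, FDR 0.00667 in edgeR's test), and Polr1d changed by -0.61 (FDR 0.00616). Taf1a (0.29) and Polr1b (0.12) did not pass. Of 39 tested ribosome biogenesis genes 18 fell and none rose (median -0.25). The nucleolar proteins Nop16 (-0.75) and Nop58 (-0.72) had the smallest p among them, while Heatr1 (0.49, FDR 0.109) and Tsr1 (0.13) did not pass.

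Other mRNAs known for a TOP start were lower more often than higher in male EAE mice. Below 0 were 13 of 18 log2 fold changes, against 48.2% over all genes. Of 18 tested 8 fell and 1 rose (median log2 fold change -0.21), with Btf3, a partner of the newly made protein at the tunnel exit, at -0.75 (FDR 0.00782), the initiation factor Eif3f at -0.30 (FDR 0.00763) and the histone chaperone Nap1l1 at 0.32 (FDR 0.0114). Hnrnpa1 had 0.29 and did not pass. Of 17 tested genes of the mTORC1 route and of the control of ribosomal protein mRNAs 4 fell and 4 rose (median 0.12), near the 20.4% and 19.2% of all genes. The mTORC1 inhibitor Akt1s1 (-0.47, FDR 0.00686) and its target Eif4ebp1, which holds back translation (-0.58, FDR 0.0115), fell, while the LARP1 relatives Larp4 (0.56, FDR 0.0158) and Larp4b (0.44, FDR 0.00661) rose. No gene of these 4 lists passed in female EAE mice, where the medians were -0.19, -0.17, -0.14 and -0.06 in the same order.

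Markers of other cell types moved in the male comparison as well. Of the 9 astrocyte markers 6 fell in males and none rose (median log2 fold change -0.43), and of the 8 oligodendrocyte markers 2 fell and 1 rose (0.03). Of the 8 neuronal markers 1 fell and 2 rose (0.15). Among all genes 20.4% fell and 19.2% rose. In females none of these passed, with a median of -0.43 for the astrocyte markers as well. Of 8 tested T and B cell markers 3 rose in males (median 1.98) and 1 in females (2.64), and their summed level was 90.7 to 186 CPM in male EAE against 65.1 to 101 CPM in male control mice, and 98.5 to 166 CPM in female EAE against 100.1 to 117 CPM in female control mice. Of 8 microglial and 6 endothelial markers 1 each rose in males (medians 0.47 and 0.33), with sums of 34.5 to 51.8 CPM and 4.78 to 8.97 CPM in male EAE against 37.7 to 42.5 CPM and 3.66 to 6.40 CPM in male control mice. The part of RNA from these cell types in the fall of the ribosomal protein genes was not tested.

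A model with a hidden variable gave different counts. With 1 surrogate variable found on the raw counts 48 of the 89 genes fell in males (13.1% of all genes) and 27 fell in females (7.29% of all genes), while with 1 found on CPM values no gene passed in males (0.00899% of all genes fell), the median log2 fold change being -0.08. The variable from CPM had 60.3% of its variance between the 4 groups and a correlation with the first principal component of 0.999 in size, and the one from counts had 18.3% and 0.849. Where that variable runs along the groups, its part and that of EAE cannot be told apart.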

How the data were processed

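RNA bound to HA-tagged Rpl22 was sequenced from the cortex of 17 mice. The deposited values are raw read counts per Ensembl gene, which the authors made by demultiplexing with bcl2fastq 2.17, quality control with FastQC, trimming with Trimmomatic, and alignment to mm10 and counting with QuasR, where the labels and the methods name these steps. The annotation release and the settings for strand and for reads with several matches are not given in the sources used here, and both bear on genes with near-identical copies. Samples were grouped by their titles.

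Genes with at least 1 count in at least 9 libraries (22242) were scaled by TMM and fitted with edgeR 4.0.16 in R 4.3.3 (quasi-likelihood, 1 mean per group, all 17 libraries). The contrasts were EAE against control in each sex, their difference, and male against female controls. Calls needed an FDR under 0.1 over all genes tested and a log2 fold change past 0.25. CPM values use the TMM library sizes, and intervals are 95%. The test was checked on simulated counts with the same dispersion for every gene. They held no length trend and no outlying library, so the check does not cover these. Depth was 66155142 to 98433383 counts. Floors of 3 counts cover counting error alone, because no molecular identifiers were used and reads can be copies of 1 molecule. P-values measure the spread between mice of a group.

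Alternatives were other scalings, filters and thresholds, leaving out each library and male control 4 with female control 2, each sex alone, the replicate number as a block, an offset for gene length, 1 surrogate variable (sva 3.50.0), adding pseudogene rows, limma voom (limma 3.58.1), DESeq2 1.42.0 and, for shares, another denominator. The surrogate variable from CPM and the subset of genes with 75% or more of windows unique were chosen after seeing the data. Symbols, exon lengths and uniqueness came from the GENCODE annotation and genome of GRCm38, start sequences from RefSeq (GRCm38.p6).

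Genes named are Rpl22, copies with their parents, the 10 largest falls without overlap, the rises, the 5 smallest changes, the 5 smallest p of the difference between the sexes, the 3 highest and 3 lowest by count, X-linked genes, stalk and fusion genes, Rpsa, any gene called in a comparison with under 4 calls, and for the other lists the 2 smallest p in each direction. A few genes that these rules name are not reported here. The members, the lists and these rules were chosen with earlier results of these data known.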

Additional observations from a re-analysis of the deposited data

Results flagged for a closer look

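Within groups of 4 or 5 mice, 14 of 176 sets of values had a single library far from the others, that is, with a gap to its nearest neighbour larger than Dixon's 95% critical value of the range, where chance gives about 1 in 20. Male control 4 was far above the other male controls in Rpl22 (93.0 CPM), Rps14 (30.7 CPM) and Rpsa (6.37 CPM). Female control 2 was far above the other female controls in Rpl14 (125 CPM), Rps14 (27.2 CPM) and Rpl36al (3.89 CPM). These 2 libraries also had the highest share of counts in the ribosomal protein genes within their groups.

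Rpl22l1 was high in male EAE 3 (0.777 CPM) and Rps28 in male control 1 (1.06 CPM), while Rpl3 was low in female control 1 (1.60 CPM). Rpl39l was high in male EAE 4 (0.138 CPM), and Rpl9-ps1 had counts in 1 library each of male EAE (0.0269 CPM, male EAE 5), male control (0.0231 CPM, male control 1) and female EAE (0.0287 CPM, female EAE 5), levels at or under about 3 counts for Rpl9-ps1. The total of female EAE 4 (8.66913e+07 counts) was far above those of the other female EAE libraries.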

How the results depend on the processing

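The ribosomal protein genes that fell in males numbered 47 to 70 on leaving out each library in turn (67 with every library; 1 more rose), with medians of -0.69 to -0.43, and the female medians were -0.39 to -0.19 with no calls. Medians of the male minus female difference were -0.41 to -0.14 and of male over female controls 0.04 to 0.32. The median share of counts in a group moved within 0.155% to 0.163% (male EAE), 0.224% to 0.238% (male control), 0.162% to 0.189% (female EAE) and 0.208% to 0.210% (female control). The male median was -0.37 with the length offset, -0.39 with the offset and the replicate block, -0.37 with 1 surrogate variable from counts and -0.077 with the one from CPM, which left 0 calls in males and a female median of -0.034. In females the variable from counts gave 27 calls and DESeq2 2, and between the controls DESeq2 gave 1. Among the 12 genes with 75% or more of windows unique 9 were called in males. Without mitochondrial genes and the 50 most counted genes in the denominator the median share was 0.180% in male EAE and 0.269% in male control mice, and 0.203% in female EAE and 0.244% in female control mice. Rps24 (0.10), Rps15a (-0.046) and Rps27a (0.015) changed sign with the variable from CPM, as did Fau (0.58), Rps27l (0.13), Rpl15 (0.12), Rpl10 (0.11) and Rps28 (0.064), which had not passed, and Rps15a (-0.030) and Rps13 (-1.11) with pseudogene rows added. Rpl10 (0.23), Rpl15 (0.17), Rps28 (0.19) and Rpl39l (0.27) were among those that changed sign with the length offset. Without male control 4 Rpl15 (0.057) and Rps13 (-0.032) changed sign. Of the values listed here with a changed sign, only that of Rps13 with pseudogene rows added passed (FDR 0.00564 in edgeR's test). With the offset 75 of the 89 male values were below 0, against 85 without it. The cause of these changes was not tested. The other alternatives kept the direction of the medians and the number of calls within 1.5 times.

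With the replicate number as a block 62 genes fell and 1 rose in males (median -0.62) and none passed in females. Same-numbered EAE and control libraries deviated together in some numbers and against each other in others (correlations of -0.02, 0.13, -0.28 and -0.57 in males and -0.37, 0.39 and 0.53 in females), so the numbers were not taken as pairs. Depth limited the rarest genes: of the 12 tested under 1 CPM 4 fell in males, with SEs of up to 1.08 among the 12.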

Other observations

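Proteins that escort ribosomal proteins before assembly were lower in part in male EAE mice. Of 10 tested chaperones of ribosomal proteins 4 fell and 1 rose (median log2 fold change -0.15, where 20.4% of all genes fell and 19.2% rose). Aamp averaged 105 ± 10.1 CPM in male EAE (SD, n = 5) against 156 ± 30.9 CPM in male control mice (SD, n = 4; -0.57, FDR 0.00621 in edgeR's test), and Bccip, which accompanies Rpl23, changed by -0.46 (FDR 0.0131). Nap1l1, which is also on the list of TOP mRNAs, rose (0.32), and Heatr3 did not pass (0.17, FDR 0.133).

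Free ribosomal proteins can raise p53 through Mdm2, and genes of the p53 response were called about as often as other genes in male EAE mice. Of 11 tested 2 fell and 2 rose (median log2 fold change -0.14), where 20.4% of all genes fell and 19.2% rose. Bax, which opens the outer mitochondrial membrane in cell death, changed by -0.78 and Phlda3, an inhibitor of Akt, by -0.33 (FDR 0.00574 and 0.0195 in edgeR's test), while the cyclin G gene Ccng1 had 0.35 and the RNA-binding protein gene Zmat3 0.32 (FDR 0.0161 and 0.0405). No gene of these lists passed in female EAE mice.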
